A study of Mus musculus with 12 samples.

Results

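The genes described here carry out DNA replication in S phase: the MCM helicase, the factors that load it, the enzymes of nucleotide supply, the polymerases, clamp and clamp loader, the single-strand binding proteins, the chromatin factors that follow the fork and the regulators of S phase entry. The set of 39 genes was a fixed list of names, chosen with earlier results of these data known. Shares of the set given beside those of all tested genes are therefore descriptions and not independent tests. Each gene was read from its brightest probe set, by the mean of the 12 arrays. Of these, 38 had a probe set assigned to 1 gene among the 18193 genes of the array, 26 were detected (a log2 value above 5 in 3 arrays or more) and 12 were not. Chaf1a has no value here. In all, 9120 genes were detected and tested.

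CD11b+ cells were isolated from the hippocampus of female mice by flow cytometry, and their RNA was measured with 3 mice and 3 arrays in each of 4 groups. Balb/c irradiated mice received 10 Gy of X-rays and were compared with Balb/c sham mice, and C57BL/6 irradiated mice, given the same dose, were compared with C57BL/6 sham mice. The beam was limited to a field of 1 cm over the forebrain, under ketamine and xylazine anaesthesia, at 6.5 weeks of age, and cells were taken 1 month later, at 10.5 weeks. The comparisons ask how brain irradiation alters the transcriptome of microglia, the resident macrophages of the brain, and whether the strain matters. CD11b is also carried by monocytes and neutrophils, so the sort does not take microglia alone. Each animal gave 5000 to 10000 cells, and their RNA went through 2 rounds of linear amplification.

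S phase is prepared in G1, when the origin recognition complex, Cdc6 and Cdt1 load the ring of MCM proteins (Mcm2 to Mcm7) onto DNA. Cyclin E with its kinase then fires the origins, and most of the genes of this machinery are switched on by E2F transcription factors once the retinoblastoma protein is inactivated. In the adult brain microglia divide slowly, but they can proliferate after injury or after loss of neighbouring cells. Several of these proteins also serve DNA repair, so their transcripts are not a count of cells in S phase. In bulk RNA, a change in the share of cells that express a gene and a change in the level per cell cannot be told apart.

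The arrays held microglial RNA. All 11 microglial markers with a probe set were detected, and the purine receptor gene P2ry12 stood at a mean log2 value of 14.06 ± 0.10 in Balb/c irradiated, 14.18 ± 0.15 in Balb/c sham, 13.96 ± 0.21 in C57BL/6 irradiated and 13.94 ± 0.16 in C57BL/6 sham mice (SD, n = 3 each). Other markers were less level. In Balb/c, Itgam averaged 8.17 ± 0.75 in irradiated and 9.28 ± 0.12 in sham mice, and Trem2 10.59 ± 0.38 and 11.61 ± 0.25. Fcrls averaged 13.08 ± 0.17 in Balb/c sham and 14.34 ± 0.01 in C57BL/6 sham mice. After irradiation 9 of the 11 changes were negative in each strain. One marker was called as lower in Balb/c (9.09%, against 6.15% of all tested genes called) and none in C57BL/6. Cdkn1a, the p53 target that encodes the cell cycle inhibitor p21, was higher in irradiated mice by 3.12 ± 0.21 in Balb/c and by 4.35 ± 0.21 in C57BL/6 (log2 ± SE, limma adjusted p = 4.55e-05 and 3.90e-06). Trp53, which encodes p53, has no value here. The leading principal components took up 36.2% and 26.9% of the variance. Balb/c irradiated replicate 2 stood apart by the lowest 18S ribosomal RNA control signal, 10.48 (log2), but was at the edge of neither component. C57BL/6 irradiated replicate 3 stood apart by the lowest value on the second component, -41.5. Its mean correlation with its group was also the lowest, 0.966, though replicate 2 of that group was close at 0.968. Counts without Balb/c irradiated replicate 2 and C57BL/6 irradiated replicate 3 are given below.

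Promoter sequences are shown for 4 of the genes the results turn on, because E2F control is the best known feature of this gene set. They are the 250 bases before the start of each gene in RefSeq's annotation of build GRCm38.p6, given 5′ to 3′ on the strand of the gene. Capitals mark matches to TTTNNCGC, the short form of the E2F site, searched on both strands, with overlapping matches joined. Mcm5 lies on the plus strand at chr8:75109259-75109508, Mcm6 on the minus strand at chr1:128359706-128359955, Hells on the plus strand at chr19:38930740-38930989 and Rrm2 on the plus strand at chr12:24708004-24708253.
Mcm5: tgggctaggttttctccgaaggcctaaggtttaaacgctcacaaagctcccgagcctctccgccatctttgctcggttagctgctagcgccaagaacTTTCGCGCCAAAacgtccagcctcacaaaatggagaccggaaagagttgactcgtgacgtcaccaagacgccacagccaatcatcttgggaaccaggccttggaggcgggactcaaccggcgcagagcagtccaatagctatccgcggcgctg
Mcm6: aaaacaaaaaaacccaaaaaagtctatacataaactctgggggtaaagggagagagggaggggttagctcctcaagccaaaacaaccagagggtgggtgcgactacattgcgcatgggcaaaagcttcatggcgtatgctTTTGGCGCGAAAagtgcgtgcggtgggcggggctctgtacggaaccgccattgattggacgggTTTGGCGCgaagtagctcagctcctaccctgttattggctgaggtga
Hells: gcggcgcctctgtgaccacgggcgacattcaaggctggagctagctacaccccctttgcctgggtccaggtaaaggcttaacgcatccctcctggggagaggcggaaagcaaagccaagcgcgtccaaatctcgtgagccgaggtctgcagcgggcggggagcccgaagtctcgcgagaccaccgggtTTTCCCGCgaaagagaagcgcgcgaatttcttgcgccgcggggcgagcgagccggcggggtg
Rrm2: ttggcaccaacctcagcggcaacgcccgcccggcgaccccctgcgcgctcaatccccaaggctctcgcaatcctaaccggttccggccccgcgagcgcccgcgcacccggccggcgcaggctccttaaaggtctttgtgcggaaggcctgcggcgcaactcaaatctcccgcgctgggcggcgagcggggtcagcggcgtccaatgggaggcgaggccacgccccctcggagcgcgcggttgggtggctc
The Mcm5 window held 2 overlapping matches whose first bases lay 153 bases before the start on the forward strand and 149 on the reverse strand. In Mcm6 there were 3 matches, at 110 (forward), 106 (reverse) and 47 (forward) bases before the start, and in Hells 1 match at 62 bases (forward). The Rrm2 window held no match to these letters. Over the 35 listed genes with a promoter entry, 10 had a match (28.6%), against 4.94% of 27025 genes. The others were Mcm7, Cdc6, Rfc3, Pola1, Uhrf1, Orc1 and Dnmt1. The CCAAT box, searched as CCAAT on both strands, was found in 21 of the 35 windows (60%), against 37.5% of all genes. A match describes these letters in this window and is not a measured binding site.

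In C57BL/6, 4 of the 26 detected replication genes rose after irradiation and none fell: Rrm2, Mcm5, Hells and Ccne2. That is 15.4% of the set, against 3.67% of all tested genes called in this comparison and 2.21% called as higher. The median log2 change of the set was 0.49, against -0.04 over all tested genes, and 22 of the 26 changes were positive (45.2% of all tested genes). In 11 genes all 3 irradiated arrays lay above all 3 sham arrays, against 11.4% of all tested genes, and in none did they lie below, against 15.1%. The 22 genes that did not pass had changes between -0.14 (Mcm3) and 1.52 (Prim1) and a smallest adjusted p of 0.0609. A call means a limma adjusted p under 0.05 over all 9120 genes. Over the 4 comparisons between groups there were 20 calls in 11 of the 26 genes (18.9% of all tested genes were called in at least 1 of the 5 contrasts). Where a called gene had another detected probe set (9 calls), 14 of 14 such values had the same sign. These probe sets read the same RNA on the same arrays and are no independent check. The calls of Mcm5, Hells, Ccne2, Rpa2 and Rfc5 had no other detected probe set. Without C57BL/6 irradiated replicate 3, or without both arrays that stood apart, 1 of the 4 calls was left. Calls over all tested genes fell in these fits too, to 113 and 104, against 335.

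In Balb/c, 3 of the 26 genes fell after irradiation and none rose: Mcm5, Rfc5 and Rfc2. That is 11.5% of the set, against 6.15% of all tested genes called and 2.89% called as lower. The median log2 change was -0.27, against -0.04 over all tested genes, and 20 of the 26 changes were negative (55.8% of all tested genes). In 11 genes all irradiated arrays lay below all sham arrays, against 16.3% of all tested genes, and in none above, against 12.8%. The 23 other genes had changes between -1.04 (Lig1) and 0.33 (Rrm2), with a smallest adjusted p of 0.0808. The count rests on few arrays: leaving out any one of the 6 Balb/c arrays left 1 call. Calls over all tested genes fell in these fits too, to between 218 and 482, against 561.

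**Figure D1:**
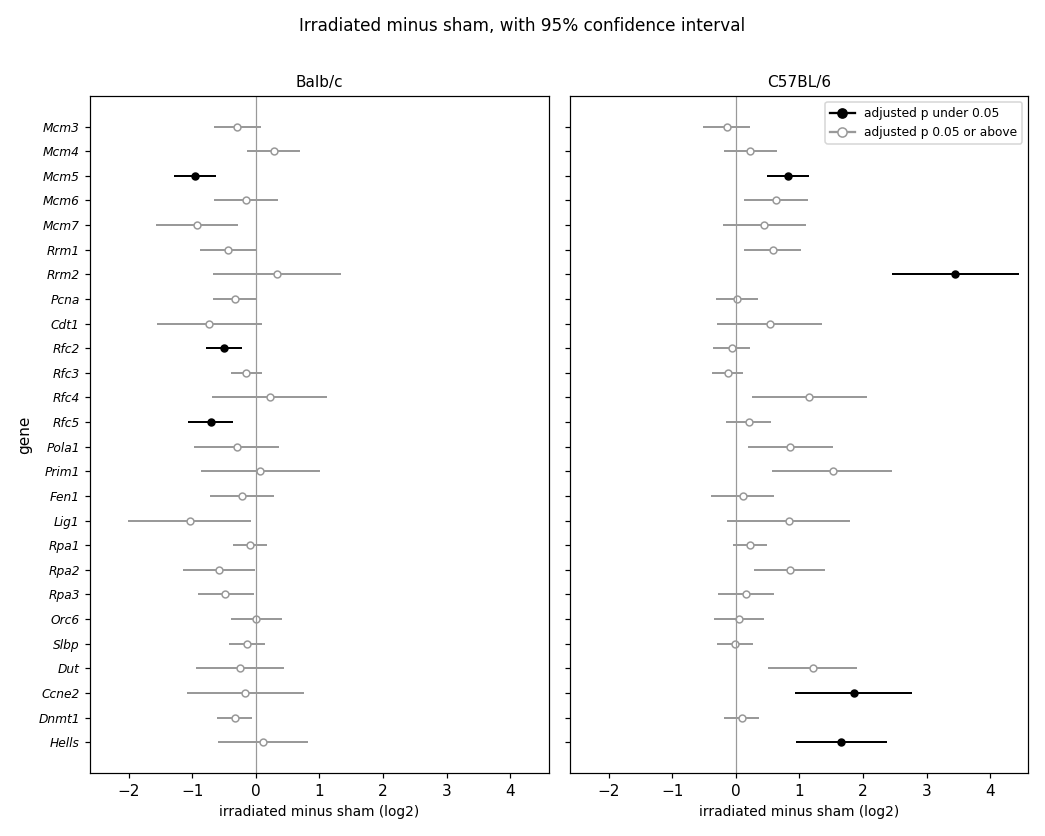
Change after irradiation of the 26 detected replication genes, irradiated minus sham on the log2 scale, in Balb/c (left) and C57BL/6 (right), with 95% confidence intervals from limma. Filled black points passed an adjusted p of 0.05 over all 9120 genes: Mcm5, Rfc2 and Rfc5 below 0 in Balb/c, and Mcm5, Rrm2, Ccne2 and Hells above 0 in C57BL/6.

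The difference between the strains in the effect of irradiation was tested by itself as an interaction, the Balb/c effect minus the C57BL/6 effect. Mcm5 passed, with a lower effect in Balb/c, and it was 1 of only 7 genes called among all tested (0.0768%, with 0.0329% called as lower). The set as a whole lay on the same side: 25 of 26 values were negative (52.7% of all tested genes), with a median of -0.92, against -0.02 over all tested genes. In 12 of the 26 the value was at most -1, against 2.38% of all tested genes. An unadjusted p under 0.05 was found for 17 of the 26, against 8.06% of all tested genes. After adjustment Mcm5 alone passed, and the smallest adjusted p of the other 25 was 0.188 (Rrm2), so for none of these 25 was a strain difference in the effect of irradiation shown. Without Balb/c sham replicate 1 the limma adjusted p of Mcm5 was 0.0577, and without both arrays that stood apart it was 0.0565.

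The strains differed before any irradiation. In sham mice 8 of the 26 genes differed between Balb/c and C57BL/6 (30.8%, against 10.5% of all tested genes). Mcm5, Rrm2, Hells, Rpa2, Ccne2, Prim1 and Rfc2 were higher in Balb/c sham (5.22% of all tested genes) and Mcm3 was lower (5.24% of all tested genes). The median difference was 0.35, against 0.04 over all tested genes. This comparison uses the same C57BL/6 sham arrays as the irradiation comparison in C57BL/6, so the values of those arrays enter both. The count was 5 without Balb/c sham replicate 1, C57BL/6 irradiated replicate 1 or Balb/c irradiated replicate 2, and 4 without Balb/c sham replicate 3. Over all tested genes these fits called 681, 889, 939 and 740 in that order, against 954.

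In irradiated mice 5 of the 26 genes were lower in Balb/c than in C57BL/6 and none was higher: Mcm6, Rfc5, Mcm3, Mcm5 and Mcm7 (19.2%, against 8.97% of all tested genes called and 4.59% called as lower). Of these, 4 encode helicase subunits. The median difference was -0.38, against 0.02 over all tested genes. Same-numbered mice of these 2 groups deviated together, and with the replicate number as a block 4 genes passed, without Mcm7 (adjusted p = 0.0513). With the block in the irradiated arrays alone, 2 passed, Mcm6 and Rfc5. Without Balb/c irradiated replicate 2 or C57BL/6 irradiated replicate 3 the count was 3, and without both it was 2. Over all tested genes these fits called 591, 614 and 450 in that order, against 818. The block fits called 793, and 498 in the irradiated arrays alone.

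**Figure D2:**
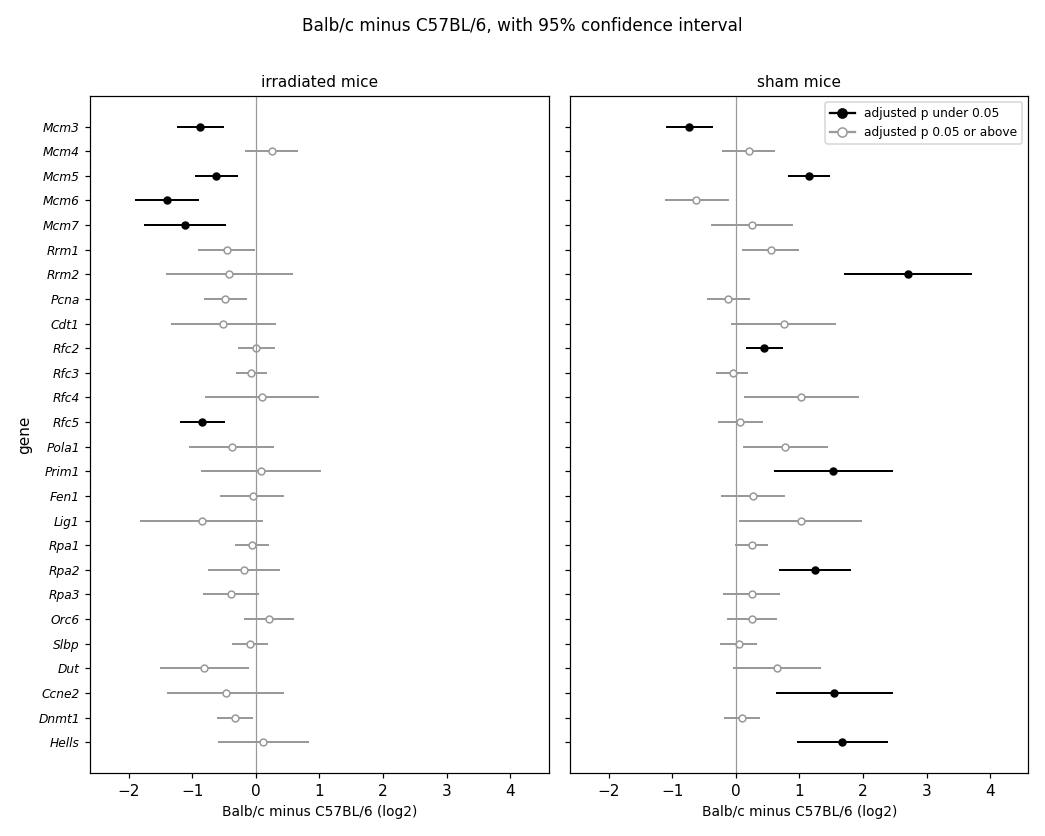
Difference between strains in the 26 detected replication genes, Balb/c minus C57BL/6 on the log2 scale, in irradiated (left) and sham mice (right), with 95% confidence intervals from limma. Filled black points passed an adjusted p of 0.05: 5 genes below 0 in irradiated mice, and in sham mice 7 genes above 0 and Mcm3 below.

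By group mean, C57BL/6 sham was the lowest of the 4 groups for 15 of the 26 genes, against 25.4% of all tested genes, and Balb/c irradiated was the lowest for 10, against 26.6%. C57BL/6 irradiated was the lowest for 1 gene, against 29.2%, and Balb/c sham for none, against 18.8%. Balb/c sham was the highest for 10, against 31.2%, and C57BL/6 irradiated for 9, against 19.4%. The median of the 26 genes in each array ran from 7.59 to 7.84 in Balb/c irradiated, 7.98 to 8.34 in Balb/c sham, 7.97 to 8.08 in C57BL/6 irradiated and 7.29 to 7.59 in C57BL/6 sham mice. The Balb/c irradiated arrays lay below all Balb/c sham arrays, and the C57BL/6 irradiated arrays lay above all C57BL/6 sham arrays. Over all tested genes the same median stayed between 8.50 and 8.56.

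**Figure D3:**
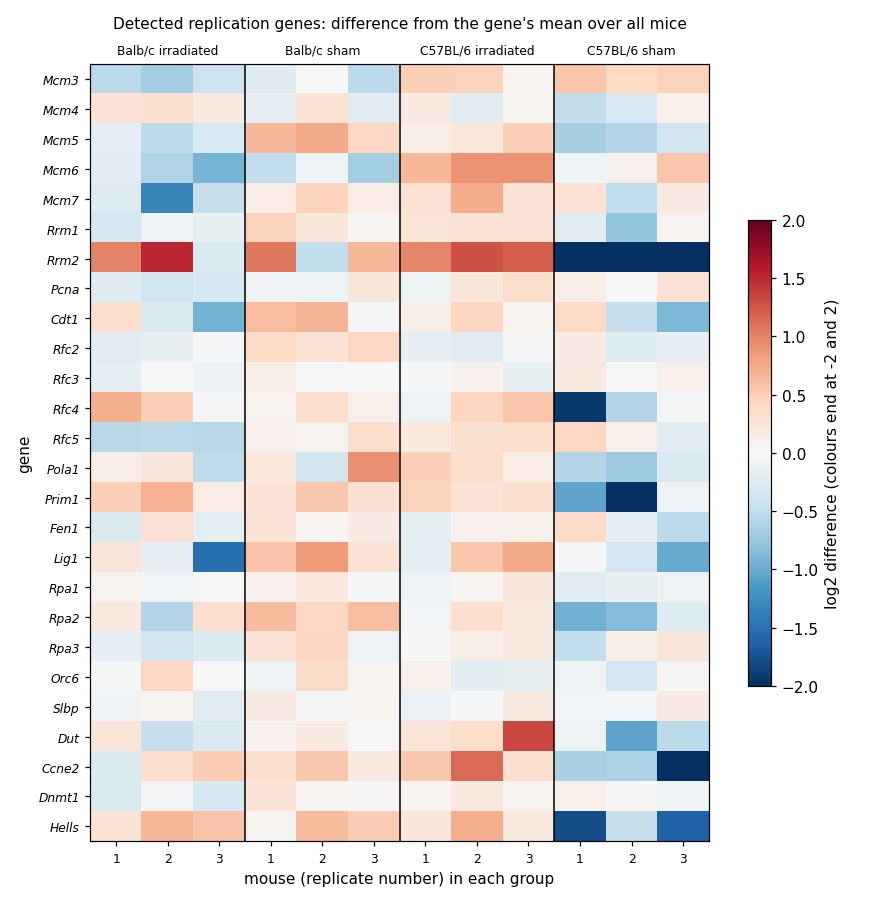
Each of the 26 detected replication genes (rows) in each of the 12 mice (columns, 3 per group), as the log2 difference from the gene's mean over all mice, with colours ending at -2 and 2. The C57BL/6 sham columns are blue for Rrm2, Ccne2 and Hells and, in 2 of 3 mice, for Prim1. Mcm5 is blue in both the Balb/c irradiated and the C57BL/6 sham columns, and Mcm7 and Rfc5 are blue in the Balb/c irradiated columns.

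The MCM ring is the motor of the replicative helicase, and 5 of its 6 genes were detected. Mcm3, Mcm5, Mcm6 and Mcm7 were called in at least 1 contrast, as were 18.9% of all tested genes. Mcm5, which in yeast forms with Mcm2 the gate through which DNA enters the ring, had log2 values of 8.37, 8.04 and 8.27 in Balb/c irradiated mice, 9.22, 9.33 and 8.99 in Balb/c sham mice, 8.71, 8.78 and 9.05 in C57BL/6 irradiated mice and 7.91, 7.99 and 8.19 in C57BL/6 sham mice. The groups did not overlap within either strain, and the order of irradiated and sham was opposite in the 2 strains. Irradiated mice were lower by a log2 change of -0.95 ± 0.14 in Balb/c (SE, limma adjusted p = 0.00435) and higher by 0.82 ± 0.14 in C57BL/6 (adjusted p = 0.0144). The interaction was -1.77 ± 0.20 (adjusted p = 0.0101), with a 95% confidence interval from -2.22 to -1.32. Between strains, Balb/c was lower than C57BL/6 by -0.62 ± 0.14 in irradiated mice (adjusted p = 0.0204) and higher by 1.15 ± 0.14 in sham mice (adjusted p = 4.06e-04). Mcm5 was the gene of the set called in all 5 contrasts. It rests on 1 probe set of the kind ending in _x_at, which can bind related transcripts. Its 2 other probe sets stood at 2.23, the bottom of the scale, in every array and could not check it. Without C57BL/6 irradiated replicate 3 the rise in C57BL/6 had an adjusted p of 0.0608, and without Balb/c sham replicate 1 the interaction had one of 0.0577. The difference between irradiated strains had one of 0.0778 without C57BL/6 irradiated replicate 3, 0.0811 without Balb/c irradiated replicate 2, and 0.187 without both, where it was -0.43.

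Mcm3 was called between strains, in irradiated and in sham mice, and in neither irradiation comparison. Its log2 values were 8.69, 8.52 and 8.80 in Balb/c irradiated mice and 8.97, 9.21 and 8.69 in Balb/c sham mice. In C57BL/6 they were 9.69, 9.68 and 9.26 in irradiated mice and 9.77, 9.62 and 9.67 in sham mice, all above every Balb/c array. Balb/c was lower by -0.87 ± 0.16 in irradiated mice (adjusted p = 0.0058) and by -0.73 ± 0.16 in sham mice (adjusted p = 0.014, and 0.0556 without Balb/c sham replicate 3). The change after irradiation was -0.29 in Balb/c and -0.14 in C57BL/6, and neither passed. Its 2 other detected probe sets were also lower in Balb/c.

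Mcm6 and Mcm7 were called between strains in irradiated mice. For Mcm6 the log2 values were 8.63, 8.25 and 7.92 in Balb/c irradiated mice, 8.35, 8.76 and 8.16 in Balb/c sham mice, 9.52, 9.74 and 9.74 in C57BL/6 irradiated mice and 8.77, 8.94 and 9.40 in C57BL/6 sham mice. Balb/c irradiated was lower than C57BL/6 irradiated by -1.40 ± 0.22 (adjusted p = 0.00234). In C57BL/6 the irradiated arrays lay above the sham arrays, but the change of 0.63 ± 0.22 did not pass (adjusted p = 0.138). Mcm7 had 8.39, 7.32 and 8.17 in Balb/c irradiated mice, 8.78, 9.10 and 8.78 in Balb/c sham mice, 8.92, 9.38 and 8.90 in C57BL/6 irradiated mice and 8.92, 8.14 and 8.80 in C57BL/6 sham mice. All 3 Balb/c irradiated arrays lay below every Balb/c sham and every C57BL/6 irradiated array. The difference from C57BL/6 irradiated was -1.11 ± 0.29 (limma adjusted p = 0.0354). This call was lost without 7 of the 12 arrays in turn, at an adjusted p of up to 0.121. With the RNA quality covariate described below, the difference was -0.61 (limma adjusted p = 0.493). The change in Balb/c was -0.93 ± 0.29 (adjusted p = 0.0808, not called). Mcm4, which ran from 10.09 to 10.88 over the 12 arrays, was called in no contrast. Mcm2 exceeded 5 in 1 array, Balb/c sham replicate 2 at 5.43, and otherwise lay between 2.38 and 4.51.

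**Figure D4:**
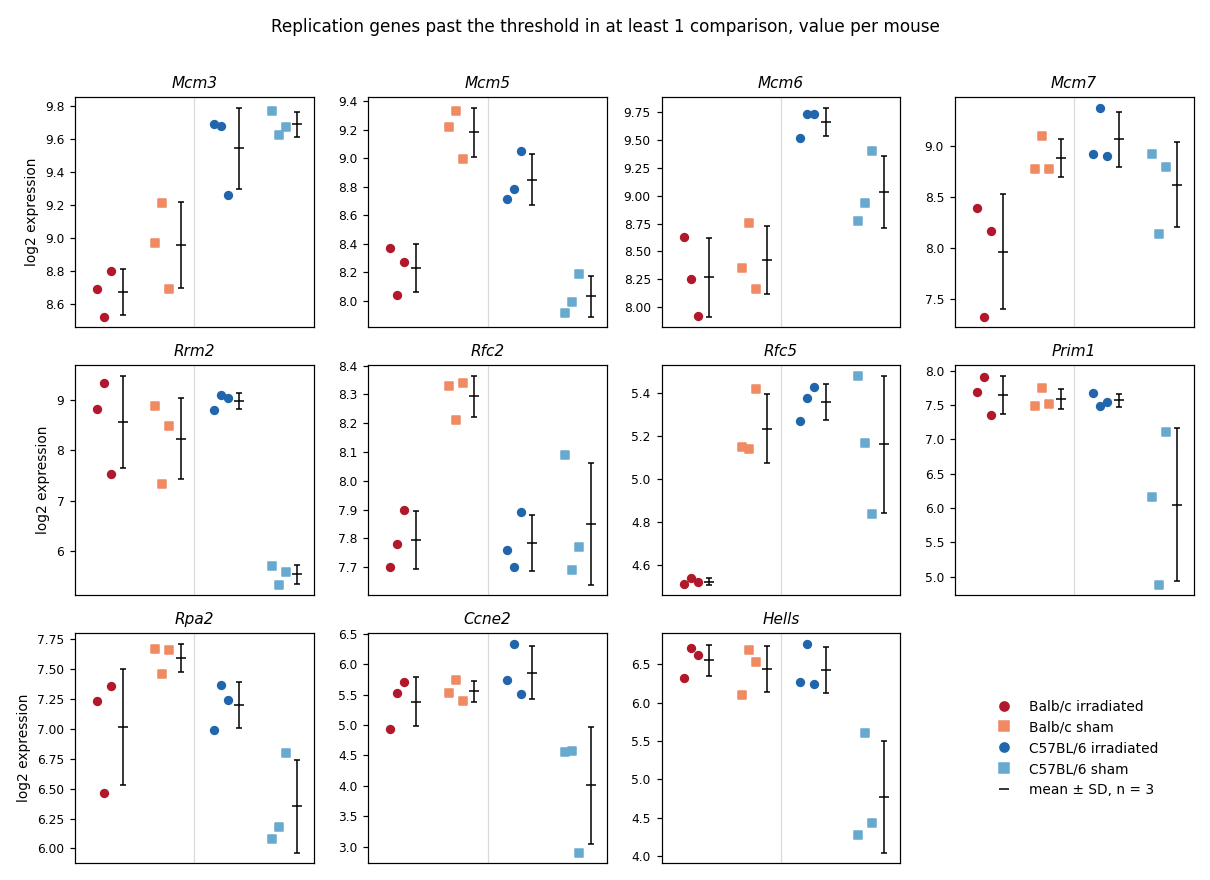
Log2 expression of the 11 replication genes that passed in at least 1 of the 5 contrasts, 1 point per mouse, with the mean and SD of 3 mice beside each group. Mcm5 is lower in irradiated than in sham Balb/c mice and higher in irradiated than in sham C57BL/6 mice, and Rrm2, Prim1, Ccne2 and Hells are lowest in C57BL/6 sham mice.

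Of the factors that load the helicase, Cdt1 and Orc6 were detected and called in no contrast. Cdt1, which brings the MCM ring to the origin, ran from 7.64 to 9.26, and Orc6, a subunit of the origin recognition complex, from 7.03 to 7.80. Orc1, its largest subunit, stood at 2.23 in all arrays. Cdc6, the loading ATPase, reached 4.56 in C57BL/6 irradiated replicate 2, and Cdc45, which joins the ring to form the active helicase, stayed between 2.75 and 3.59. Neither exceeded 5 in any array.

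Nucleotide supply gave the largest change of the set after irradiation in C57BL/6. Rrm2 encodes the small subunit of ribonucleotide reductase, which makes deoxyribonucleotides and whose level in many cells peaks in S phase. It had log2 values of 8.82, 9.34 and 7.54 in Balb/c irradiated mice, 8.88, 7.34 and 8.49 in Balb/c sham mice, 8.81, 9.11 and 9.04 in C57BL/6 irradiated mice and 5.70, 5.32 and 5.57 in C57BL/6 sham mice. The C57BL/6 sham arrays lay below the other 9, which overlapped with each other. Irradiated C57BL/6 mice were higher by 3.45 ± 0.45 (11-fold, adjusted p = 0.00354), and Balb/c sham mice were higher than C57BL/6 sham mice by 2.71 ± 0.45 (6.54-fold, adjusted p = 0.00262). The change in Balb/c was 0.33 ± 0.45, with an interval from -0.66 to 1.32 (adjusted p = 0.715). The interaction of -3.12 ± 0.63 did not pass (adjusted p = 0.188). The main probe set ends in _x_at. With such probe sets left out, the next one gave 2.08 for irradiation in C57BL/6 (adjusted p = 0.0604) and 1.52 for the strains in sham mice (adjusted p = 0.113), so both calls were lost.

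Rrm1, the large subunit of the same enzyme, ran from 7.18 to 8.43 and was called in no contrast. Dut, the dUTPase that keeps uracil out of DNA, ran from 5.49 to 7.88. All 3 C57BL/6 irradiated arrays lay above the C57BL/6 sham arrays for both genes, without a call. Tyms, the thymidylate synthase, Tk1, the thymidine kinase of dividing cells, and Ung, the uracil-DNA glycosylase, were below 5 in every array. Tk1 had its highest value, 4.29, in C57BL/6 irradiated replicate 2, and Tyms did not exceed 2.89. The range of Ung was 3.40 to 4.77.

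Of the 4 listed genes of the clamp loader, which places the sliding clamp on DNA, Rfc5 and Rfc2 were called. Rfc5 had log2 values of 4.51, 4.54 and 4.52 in Balb/c irradiated mice, 5.15, 5.14 and 5.42 in Balb/c sham mice, 5.27, 5.38 and 5.43 in C57BL/6 irradiated mice and 5.48, 5.17 and 4.84 in C57BL/6 sham mice. Balb/c irradiated lay below every other array. It was lower than Balb/c sham by -0.71 ± 0.15 (adjusted p = 0.0226) and lower than C57BL/6 irradiated by -0.84 ± 0.15 (adjusted p = 0.00554). The call in Balb/c was lost without each of the 6 Balb/c arrays in turn (largest adjusted p 0.0718), while the change stayed between -0.76 and -0.62. The call between irradiated strains was lost without both arrays that stood apart (-0.81, adjusted p = 0.0618). With Ccne2, Rfc5 was the gene closest to the detection limit among those that passed it, above 5 in 8 arrays. Rfc2 had 7.70, 7.78 and 7.90 in Balb/c irradiated mice, 8.33, 8.21 and 8.34 in Balb/c sham mice, 7.76, 7.70 and 7.89 in C57BL/6 irradiated mice and 8.09, 7.69 and 7.77 in C57BL/6 sham mice. Here Balb/c sham stood above every other array. The change in Balb/c was -0.50 ± 0.12 (adjusted p = 0.0401) and the strain difference in sham mice 0.44 ± 0.12 (adjusted p = 0.0451). These Rfc2 values come from a probe set ending in _x_at. With such probe sets left out, the next one gave -0.32 in Balb/c (limma adjusted p = 0.187) and 0.12 for the strains in sham mice (adjusted p = 0.689). Both calls were then lost. The Rfc2 call after irradiation was lost without 9 of the 12 arrays in turn, and the strain call without 11. Rfc3 (5.69 to 6.05) and Rfc4 (4.64 to 7.30) were called in no contrast.

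Among the polymerases and the enzymes of the lagging strand, Prim1 alone passed a test, in 1 contrast. It encodes the catalytic subunit of primase, which lays the RNA primers. Its log2 values were 7.69, 7.91 and 7.36 in Balb/c irradiated mice, 7.49, 7.75 and 7.52 in Balb/c sham mice, 7.68, 7.49 and 7.54 in C57BL/6 irradiated mice and 6.16, 4.88 and 7.11 in C57BL/6 sham mice. The C57BL/6 sham arrays were the lowest and spread over more than the other 9 together. Balb/c sham was higher than C57BL/6 sham by 1.53 ± 0.42 (adjusted p = 0.0406), a call lost without 11 of the 12 arrays in turn (largest adjusted p 0.12). The change after irradiation in C57BL/6 was 1.52 ± 0.42 (adjusted p = 0.0729, not called).

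Pola1, the catalytic subunit of the polymerase that extends these primers, ran from 5.95 to 7.59 and lay higher in all C57BL/6 irradiated than sham arrays. Lig1, the ligase that joins the fragments, ran from 4.83 to 7.19 and lay lower in all Balb/c irradiated than sham arrays. Fen1, the flap nuclease, ran from 8.98 to 9.88. Pcna, the sliding clamp and a known p53 target, ran from 11.42 to 12.17, and its Balb/c irradiated arrays lay below those of the other 3 groups. None of these 4 was called in any contrast. Pole, the leading-strand polymerase, did not exceed 2.29 in any array.

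Rpa1, Rpa2 and Rpa3 form the complex that coats single-stranded DNA. Rpa2 had log2 values of 7.23, 6.46 and 7.36 in Balb/c irradiated mice, 7.67, 7.46 and 7.66 in Balb/c sham mice, 6.99, 7.37 and 7.24 in C57BL/6 irradiated mice and 6.08, 6.18 and 6.80 in C57BL/6 sham mice. Irradiated arrays lay below sham arrays in Balb/c and above them in C57BL/6. Only the strain difference in sham mice passed, with Balb/c higher by 1.24 ± 0.25 (adjusted p = 0.00815), and it kept its call without each array in turn. Irradiation gave -0.58 ± 0.25 in Balb/c (adjusted p = 0.192) and 0.85 ± 0.25 in C57BL/6 (adjusted p = 0.0874). The interaction was -1.43 ± 0.35 (adjusted p = 0.326). Rpa1 (10.82 to 11.28) and Rpa3 (6.78 to 7.70) were called in no contrast.

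Of the chromatin factors, Hells, a helicase of the SNF2 family needed for DNA methylation, was called in 2 contrasts. It had log2 values of 6.32, 6.71 and 6.62 in Balb/c irradiated mice, 6.10, 6.68 and 6.53 in Balb/c sham mice, 6.27, 6.77 and 6.24 in C57BL/6 irradiated mice and 4.27, 5.60 and 4.43 in C57BL/6 sham mice. As for Rrm2, the C57BL/6 sham arrays lay below the other 9. Irradiated C57BL/6 mice were higher by 1.66 ± 0.32 (adjusted p = 0.0209, with the call lost without 3 of the 12 arrays in turn, at most at 0.0596), and Balb/c sham mice were higher than C57BL/6 sham mice by 1.67 ± 0.32 (adjusted p = 0.00598). The change in Balb/c was 0.11 ± 0.32 (adjusted p = 0.87), and the interaction of -1.55 ± 0.45 did not pass (adjusted p = 0.441). Dnmt1, the maintenance DNA methyltransferase, ran from 9.13 to 9.74, and Slbp, which binds the stem-loop of histone mRNAs, from 9.97 to 10.37. Both were called in no contrast. Uhrf1, which brings Dnmt1 to hemimethylated DNA, reached 3.04 in C57BL/6 irradiated replicate 3, and Chaf1b, a subunit of the chromatin assembly factor, stood at 2.23 in all arrays.

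Of the regulators of S phase entry, Ccne2, a cyclin E, was detected. Its log2 values were 4.93, 5.52 and 5.71 in Balb/c irradiated mice, 5.53, 5.74 and 5.39 in Balb/c sham mice, 5.74, 6.34 and 5.51 in C57BL/6 irradiated mice and 4.56, 4.57 and 2.90 in C57BL/6 sham mice. The C57BL/6 sham arrays lay below all others, and replicate 3 was close to the bottom of the scale. Irradiated C57BL/6 mice were higher by 1.85 ± 0.41 (adjusted p = 0.037), and Balb/c sham mice were higher than C57BL/6 sham mice by 1.54 ± 0.41 (adjusted p = 0.0361). Each call was lost without 6 of the 12 arrays in turn (largest adjusted p 0.0806 and 0.113). In Balb/c the change was -0.17 ± 0.41 (adjusted p = 0.854). Ccne1, the other cyclin E, exceeded 5 in 2 arrays, Balb/c irradiated replicate 2 at 5.50 and Balb/c sham replicate 1 at 5.11. E2f1, the E2F family member best known for S phase entry, ran from 3.13 to 3.64.

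**Figure D5:**
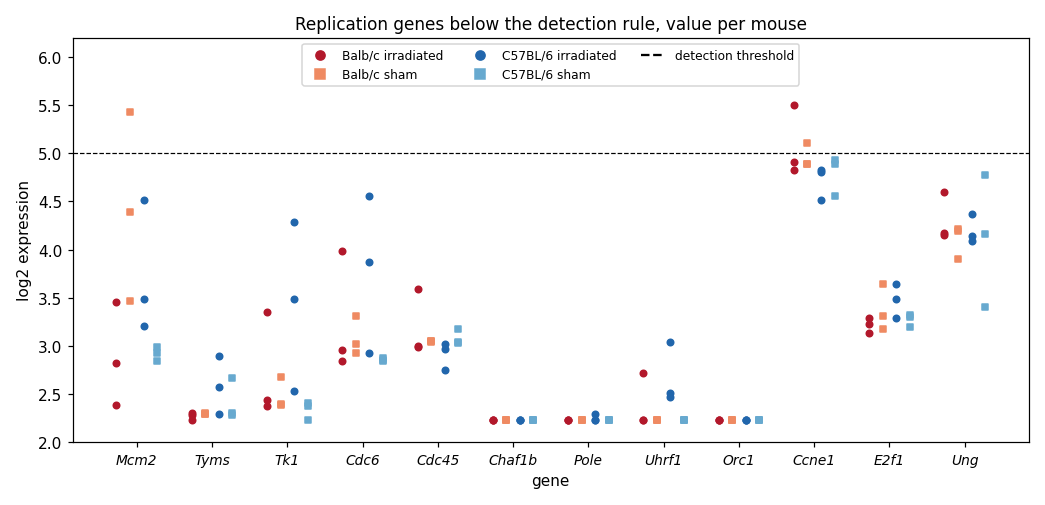
Log2 expression of the 12 replication genes below the detection rule, 1 point per mouse, with the threshold of 5 as a dashed line. Mcm2 exceeded it in 1 mouse and Ccne1 in 2, and Chaf1b and Orc1 stood at the bottom of the scale, 2.23, in all 12.

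Related genes outside the set were described by pathway. Of 35 detected genes of the replication fork, none was called after irradiation in C57BL/6 (limma). At an unadjusted p under 0.05 there were 6, against 1945 of all 9120 tested genes. Rnaseh2c, a subunit of ribonuclease H2, fell by 0.54 in Balb/c (log2, limma adjusted p = 0.0439), 2.86% of the list against 6.15% of all tested genes. Of 21 detected genes of nucleotide metabolism none was called in either strain (limma). At an unadjusted p under 0.05 there were 1 in Balb/c and 2 in C57BL/6, against 2082 and 1945 of all 9120 tested genes. Between strains, 2 of the 35 fork genes were called in sham mice (5.71%, against 10.5% of all tested genes): Gins1, a subunit of the active helicase, was higher in Balb/c by 1.02 (adjusted p = 0.0226) and Rnaseh2c lower by -0.85 (adjusted p = 0.00231). In irradiated mice 3 were called, all lower in Balb/c (8.57%, against 8.97%): Rnaseh2c by -0.99, Pold4, a small subunit of polymerase delta, by -0.81 and Rnaseh2b by -0.71 (adjusted p = 0.00106, 0.0354 and 0.0382). These shares did not exceed those of all tested genes. Of the 21 nucleotide genes, 1 was called between strains in sham mice (4.76%, against 10.5%). In irradiated mice 2 were called, a share near that of all tested genes (9.52%, against 8.97%). The purine synthesis gene Gart was higher in Balb/c by 0.87 in irradiated mice (adjusted p = 2.03e-04) and by 0.50 in sham mice (adjusted p = 0.00705), and Dctpp1, a nucleotide pyrophosphatase, was lower in irradiated mice by -0.49 (adjusted p = 0.0287).

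Of 22 detected genes of the E2F and cyclin network, 4 rose after irradiation in C57BL/6 (18.2%, against 3.67% of all tested genes called). Ccna2, the cyclin of S phase, rose by 2.49 ± 0.34 (adjusted p = 0.00484), E2f8 by 2.26 ± 0.53 (adjusted p = 0.0439), and the D-type cyclins Ccnd2 and Ccnd1 by 1.74 ± 0.38 and 1.08 ± 0.20 (adjusted p = 0.034 and 0.0202). In Balb/c 3 were called (13.6%, against 6.15%). Ccnd2 rose by 2.53 ± 0.38 (adjusted p = 0.00426) and Rbl2, a retinoblastoma family member, by 0.93 ± 0.19 (adjusted p = 0.0168), and Hcfc1 fell by 0.69 (adjusted p = 0.0399). In sham mice 5 of the 22 were higher in Balb/c than in C57BL/6 (22.7%, against 10.5% called), with E2f2 the largest at 2.60 ± 0.39 (adjusted p = 0.00141), followed by Ccna2, Ccnd1, Rbl2 and Tfdp1. In irradiated mice 2 were called, a share near that of all tested genes (9.09%, against 8.97%). E2f2 and Rbl2 were higher in Balb/c, by 1.55 ± 0.39 and 1.43 ± 0.19 (adjusted p = 0.0324 and 6.99e-04). None of the 3 lists had a gene called in the interaction (limma). At an unadjusted p under 0.05 there were 5 of 35, 1 of 21 and 3 of 22, against 8.06% of all tested genes.

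The proliferation genes Mki67 and Top2a also rose after irradiation in C57BL/6. Mki67 averaged 8.35 ± 0.42 in Balb/c irradiated, 7.70 ± 0.41 in Balb/c sham, 9.03 ± 0.22 in C57BL/6 irradiated and 6.09 ± 0.33 in C57BL/6 sham mice (log2, SD, n = 3 each). It was higher after irradiation in C57BL/6 by 2.94 ± 0.26 (adjusted p = 5.28e-04), while the Balb/c change of 0.66 ± 0.26 and the interaction of -2.28 ± 0.37 did not pass (adjusted p = 0.168 and 0.0822). Top2a was higher in C57BL/6 by 1.70 ± 0.21 (adjusted p = 0.0024), with an interaction of -1.70 ± 0.29 (adjusted p = 0.102). In sham mice both were higher in Balb/c than in C57BL/6, by 1.61 ± 0.26 and 1.03 ± 0.21 (adjusted p = 0.00241 and 0.00859).

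Markers of other cells also differed between the groups, and are given as the sum of unlogged values over the listed markers with a probe set. The sum of 8 monocyte markers, 7 of them detected, was 2046 to 2972 in Balb/c irradiated against 867 to 1164 in Balb/c sham mice, and 2897 to 4155 in C57BL/6 irradiated against 625 to 1301 in C57BL/6 sham mice. It was higher in every irradiated array than in any sham array. Of the 7 detected, 3 rose in Balb/c (42.9%): Ms4a4c, Cd44 and Fn1. Over all tested genes 297 of 9120 were called as higher there. In C57BL/6 5 rose (71.4%, against 2.21% of all tested genes called as higher): the same 3, Ccr2 and S100a4. Chil3 went the other way in C57BL/6, with 4.89 ± 2.72 in irradiated and 6.22 ± 2.23 in sham mice (log2, SD), a change of -1.33 that was not called. Neutrophil markers (4 of 9 detected, with Mpo and Elane at the bottom of the scale) summed to 854 to 3533 in Balb/c irradiated against 109 to 160 in Balb/c sham mice, and to 471 to 2489 in C57BL/6 irradiated against 452 to 2325 in C57BL/6 sham mice. S100a8 and S100a9 rose in Balb/c and were lower in Balb/c sham than in C57BL/6 sham mice.

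Astrocyte markers, 7 of 7 detected, summed to 24611 to 36948 in Balb/c irradiated against 13303 to 18067 in Balb/c sham mice, and to 19613 to 28449 in C57BL/6 irradiated against 11661 to 17150 in C57BL/6 sham mice. Endothelial and pericyte markers (6 of 8 detected, with Pecam1 at the bottom of the scale) summed to 10973 to 13696 in Balb/c irradiated against 4382 to 8448 in Balb/c sham mice, and to 4940 to 7044 in C57BL/6 irradiated against 4261 to 4908 in C57BL/6 sham mice. Both sums were higher in irradiated than in sham arrays of each strain. Rgs5 was the brightest of the endothelial and pericyte markers in every group. Its irradiated and sham means were 13.04 and 11.94 in Balb/c, and 11.60 and 11.45 in C57BL/6 (log2). Of the 6 detected, 5 changes were positive in each strain and 1, that of Kdr, was negative. Kdr averaged 6.77 against 6.98 in Balb/c and 6.18 against 6.21 in C57BL/6. Neural progenitor markers (2 of 10 detected, Dcx and Eomes at the bottom) summed to 589 to 789 in Balb/c irradiated against 303 to 360 in Balb/c sham mice, and to 401 to 513 in C57BL/6 irradiated against 191 to 399 in C57BL/6 sham mice. Sox2 was the brightest of these progenitor markers in every group. Its irradiated and sham means were 9.20 and 7.96 in Balb/c, and 8.60 and 7.48 in C57BL/6 (log2). Sox11 and Neurod1, neither detected, were lower in irradiated mice. Sox11 averaged 3.01 against 3.69 in Balb/c and 2.24 against 3.16 in C57BL/6. Neurod1 averaged 3.10 against 3.13 and 2.73 against 4.34. Oligodendrocyte lineage markers, 5 of 8 detected, ranged from 26034 to 46234 with overlapping groups. Microglial markers summed to 130247 to 138189 in Balb/c irradiated, 138454 to 147383 in Balb/c sham, 134438 to 150088 in C57BL/6 irradiated and 149643 to 152917 in C57BL/6 sham mice. No lymphocyte or erythroid marker was detected. The part of these cells in the replication gene results was not tested.

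Signs of RNA quality differed as well. The 18S ribosomal RNA control signal was 10.48 to 11.60 in Balb/c irradiated against 11.93 to 12.32 in Balb/c sham mice, and 11.55 to 11.77 in C57BL/6 irradiated against 12.05 to 12.31 in C57BL/6 sham mice (log2). The irradiated arrays all lay below the sham arrays, and the part of this signal in the results after irradiation was not tested. The Actb and Gapdh control probe sets are brighter at the 3′ than at the 5′ end, and this excess, which grows as RNA products shorten, was 3.70 to 4.82 in Balb/c irradiated, 3.54 to 3.81 in Balb/c sham, 3.55 to 3.77 in C57BL/6 irradiated and 3.50 to 3.75 in C57BL/6 sham mice (log2). With it as a covariate, 3 genes of the set were called after irradiation in C57BL/6 and 5 between strains in sham mice. Over all tested genes 281 and 923 were called there, against 335 and 954 without it. No gene of the set was then called after irradiation in Balb/c, between strains in irradiated mice or in the interaction (limma). The calls fell over all tested genes too, to 104 with the covariate against 561 without it in Balb/c, 336 against 818 between irradiated strains and 3 against 7 in the interaction. Among those lost, Mcm5 kept a change of -0.77 in Balb/c (adjusted p = 0.0664), against -0.95 without the covariate, and -1.59 in the interaction (adjusted p = 0.063), against -1.77. Rfc5 stayed at -0.71 in Balb/c (adjusted p = 0.138) and at -0.84 between irradiated strains (adjusted p = 0.0688). Between irradiated strains Mcm6 was at -1.18 (adjusted p = 0.0617), against -1.40, while Mcm5 was at -0.42 (adjusted p = 0.319), against -0.62. Mcm7 was at -0.61 there (limma adjusted p = 0.493), against -1.11, and Mcm3 at -0.76 (adjusted p = 0.107), against -0.87. In Balb/c Rfc2 was at -0.56 (adjusted p = 0.144), against -0.50.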

How the data were processed

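The authors deposited log2 values of 45101 Affymetrix probe sets for 12 arrays, 1 mouse each, computed by GCRMA, per the submitters' processing notes (version not given in the sources used here). Once sorted, the values of the arrays were equal within 0.001, and they ran from 2.23 to 16.2 with a median of 2.44. The number of arrays limits the precision, and the labels give no further replicate layer than 3 mice per group.

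From these values, probe sets with 1 symbol in the given platform annotation (34958; 932 had several, 9160 none) were assigned to 18193 genes, with the highest mean over all arrays choosing the probe set. Probe sets above 5 in at least 3 arrays were kept (9120 genes). limma 3.58.1 (R 4.3.3) was fitted with lmFit and eBayes, a mean for each group and 8 residual degrees of freedom. The 5 contrasts were adjusted each by Benjamini and Hochberg over 9120 genes, with a call at adjusted p under 0.05. The method was tested on simulated data. The gene set and all lists (fork, nucleotide, E2F, cell type markers) were chosen with earlier results of these data known. All listed genes of the set are reported, and from the 3 pathway lists the called genes, at most 6 per list and contrast.

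Same-numbered mice of Balb/c irradiated and C57BL/6 irradiated deviated together over the tested genes (correlations of deviations from the group means 0.22, 0.45 and 0.32), so the block fits are given beside that comparison. The labels do not say what a number marks. Between Balb/c irradiated and Balb/c sham mice the correlations were 0.06, 0.07 and 0.28. In the remaining group pairs they ran from -0.05 to 0.11. Alternatives covered the filter, floor, probe set choice, centring, eBayes settings, array weights, the samples fitted, the block, RNA quality and leaving out arrays. Promoters are RefSeq's, build GRCm38.p6. Motifs were searched with Python 3.11.15.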

Additional observations from a re-analysis of the deposited data

Results flagged for a closer look

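Mcm5 is the gene of the replication set whose response to irradiation differed between the strains by a test of the difference itself. The irradiation effect in Balb/c minus that in C57BL/6 was -1.77 ± 0.20 (log2 ± SE, limma adjusted p = 0.0101). All 3 irradiated Balb/c mice lay below all 3 Balb/c sham mice, and all 3 irradiated C57BL/6 mice lay above all 3 C57BL/6 sham mice. Over the alternatives and left-out arrays the value ran from -1.87 to -1.58 and its largest adjusted p was 0.063. It rests on 1 probe set ending in _x_at.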

How the results depend on the processing

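Alternatives changed counts more than directions: none of the 20 calls between groups changed sign, but many lost their call. Medians of the set kept their sign in all fits. With no filter, 1 gene of the set was called after irradiation in Balb/c, 2 in C57BL/6, 0 in the interaction and 5 between sham strains, with medians of 0.23 in C57BL/6 and -0.54 in the interaction. Over all genes this setting called 283 in Balb/c, 155 in C57BL/6, 2 in the interaction, 706 and 585 between sham and irradiated strains, against 561, 335, 7, 954 and 818. With a filter at 7, 2 genes were called in C57BL/6, and the medians were 0.34 in C57BL/6 and -0.71 in the interaction. Of the 7263 genes in that fit 313 were called in C57BL/6. A fit of only the groups compared called 1 in C57BL/6, 3 between irradiated strains and 5 between sham strains. Over all genes it called 96, 533 and 742 in that order. Trend and robust eBayes called 1 in Balb/c, where it called 681 over all genes. The 3′ minus 5′ covariate called 0 in Balb/c, in the interaction and between irradiated strains, and 5 between sham strains. Its calls over all genes were 104, 3, 336 and 923. Without both arrays that stood apart, 1 was called in Balb/c, 1 in C57BL/6, 0 in the interaction, 2 between irradiated strains and 5 between sham strains. That fit called 361, 104, 2, 450 and 926 over all genes. With probe sets ending in _x_at or _s_at left out, an alternative chosen after seeing the data, the counts were 1, 2, 0, 3 and 5, and Mcm5 had no detected probe set. Of the 8624 genes fitted there, 525, 313, 4, 786 and 896 were called. The genes of the set that were fitted changed too: 38 with no filter, 20 with the filter at 7 and 23 without _x_at and _s_at probe sets, against 26. With no filter the medians thus took in the 12 genes that were not detected. Some fits also had fewer arrays or more genes. The cause of these shifts was not tested.

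Leaving out each array in turn gave 1 to 3 calls in Balb/c, 1 to 5 in C57BL/6, 0 to 1 in the interaction, 3 to 5 between irradiated strains and 4 to 8 between sham strains. Over all tested genes these fits called 218 to 592, 113 to 351, 2 to 8, 576 to 847 and 681 to 939. The medians of the set ran from -0.32 to -0.23, 0.29 to 0.55, -0.99 to -0.82, -0.43 to -0.23 and 0.32 to 0.50 in that order.

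The replicate block left 3 calls in Balb/c, 4 in C57BL/6, 1 in the interaction, 4 between irradiated and 6 between sham strains, where Prim1 (adjusted p = 0.0588) and Rfc2 (0.0582) were lost. Over all tested genes the replicate block called 580, 378, 7, 793 and 947 in that order. In the irradiated arrays alone, a block fit chosen after seeing the data called 2, with Mcm3 at 0.0664, Mcm5 at 0.0962 and Mcm7 at 0.145. This fit called 498 of all tested genes. The numbers were not shown to pair the other groups.

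Changes that passed no test reversed under some settings. After irradiation in Balb/c, Rrm2 (0.33) was -0.07 with the covariate, -0.06 without both arrays and -0.12 to 0.84 with 1 array left out. Prim1 (0.07) was -0.03 with the mean of probe sets, -0.25 with the covariate, -0.06 without both arrays and -0.06 to 0.22 with 1 array left out. Mcm6 (-0.15) was 0.04 with the covariate and -0.33 to 0.02 with 1 array left out, and over the same refits Ccne2 ran from -0.33 to 0.06 and Hells from -0.05 to 0.24. In C57BL/6, Rfc2 ran from -0.14 to 0.05. Between irradiated strains, Prim1 (0.08) was -0.12 with the mean of probe sets, -0.27 with the covariate, -0.06 without both arrays and -0.05 to 0.23 with 1 array left out. Rfc2 (0.01) was -0.03 with the mean of probe sets, -0.06 with the covariate, -0.07 without _x_at and _s_at probe sets and -0.05 to 0.06, and Rpa2 (-0.19) was 0.15 with the covariate, 0.11 without both arrays and -0.36 to 0.09. Hells was -0.05 without both arrays, and Rrm2 ran from -0.80 to 0.10. Between sham strains, Mcm6 was 0.26 without _x_at and _s_at probe sets, and Rfc5 ran from -0.09 to 0.23.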
